A study of Mus musculus with 17 samples.

Results

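Aromatic amino acid catabolism is described here through 6 genes, Tat, Hpd, Hgd, Gstz1, Fah and Tdo2. They were taken by name from the pathway of phenylalanine, tyrosine and tryptophan breakdown, with earlier results of these data known. They are 6 of 55536 gene identifiers in the RNA-seq tables, and all 6 passed the filter on low counts that left 14393 genes for testing. The libraries came from hepatocytes isolated by collagenase perfusion from C57BL/6J mice, 3 months old, of the genotype ApcDHep. Apc is deleted in their hepatocytes, and β-catenin, which Apc holds down, is then active. All mice had been injected with AAV8, a viral vector for SaCas9 constructs, 1 month earlier and had been given tamoxifen (2 mg, 7 days). In 6 libraries the construct was directed at a site bound by β-catenin that lies upstream of DLK1/DIO3, an imprinted locus (condition DLK1DWRE, WRE-edited below), and in 5 libraries it was directed at Rosa26, a locus widely used as a neutral site (condition ROSA26, Rosa26-edited below). Loss of Apc, AAV8, SaCas9 and tamoxifen were therefore common to both groups, and neither Apc-intact nor unedited hepatocytes were among the libraries analysed here. For the driver of the Apc deletion and the share of cells edited, no value is given in the sources used here.

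Tyrosine is broken down in hepatocytes in a chain of enzymes that ends in fumarate and acetoacetate, and phenylalanine enters it as tyrosine. Tryptophan is broken down mainly through the kynurenine pathway, whose first and rate-limiting step in liver is the opening of the indole ring. The liver carries most of the body's capacity for both routes, and inherited loss of single enzymes of the tyrosine chain causes the tyrosinaemias and alkaptonuria. Tat and Tdo2 are classical genes of the liver's response to glucocorticoids.

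The run of each library, read from its name in the labels, divided the groups unequally. In run r770 were 3 libraries of each group, in run r595 1 WRE-edited library and 2 Rosa26-edited ones, and in run r711 2 WRE-edited libraries with no Rosa26-edited library beside them. The expected counts of a library summed to 20727036 at the least and 38935135 at the most, and mitochondrial ribosomal RNA took 2.29% to 3.00% of them in the 3 libraries of r595 against 19.02% to 29.09% in the other 8. The names of WRE-edited 4 (r711) and WRE-edited 6 (r595) hold the same number, and whether both came from 1 animal is not stated, so the pair was also summed and counted as 1 library. The labels do not say that the other libraries came from separate animals, so the p-values cover the spread among libraries and may miss that among animals. As a check of the edit, Rian, a long non-coding RNA of the DLK1/DIO3 locus, fell in the WRE-edited libraries. It had 48.7 to 113 CPM (counts scaled to a common library size) in the 6 WRE-edited libraries and 171 to 405 CPM in the 5 Rosa26-edited ones, a log2 fold change of -2.30 ± 0.26 (SE) with an adjusted p of 0.0188 by edgeR. That was the 1 gene of 14393 called at an adjusted p under 0.05 (0.00695%).

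The genes lie on 6 chromosomes, given here in coordinates of GRCm38.p6: Tat at chr8:109986078-109999804, Hpd at chr5:123171807-123182723, Hgd at chr16:37579742-37632026, Gstz1 at chr12:87147161-87164723, Fah at chr7:84585159-84605942 and Tdo2 at chr3:81958412-81975728. All are protein-coding. Windows of 300 bases around their annotated starts (250 before and 50 after, from RefSeq on GRCm38.p6) were read for 6 short motifs on both strands, in 7 windows since Gstz1 has 2 starts. The windows of Tat (chr8:109990186-109990485, plus strand) and Hgd, and 1 of the 2 of Gstz1, lie inside the gene spans given above. They stand downstream of the 5′ ends of those spans. None of the 7 windows held AGAACA, the glucocorticoid receptor hexamer, which 19.0% of the 32851 windows of the whole table held, or CTTTGAT, a TCF/LEF motif, which 3.73% held. None held GTTAAT, an HNF1 core element (7.1% of all windows), or CAAAGTCC, an HNF4 motif (1.42%). The C/EBP motif TTGCNNAA stood in the Hgd window alone, at -49 and at 15 from the start site on the opposite strand, against 10.8% of all windows. TATAAA stood in the Hgd window, at -139 on the opposite strand, and in the Tdo2 window at -229, against 13.6% of all windows. The 3 windows below are those of Hpd, the gene with the largest difference between the groups, and of Hgd and Tdo2, the genes whose windows held a match. Each is printed from 5′ to 3′ along the strand of its gene with matches in capitals, and no match overlaps another. The Hpd window is chr5:123182674-123182973 on the minus strand, the Hgd window is chr16:37579903-37580202 on the plus strand and the Tdo2 window is chr3:81975679-81975978 on the minus strand.
Hpd: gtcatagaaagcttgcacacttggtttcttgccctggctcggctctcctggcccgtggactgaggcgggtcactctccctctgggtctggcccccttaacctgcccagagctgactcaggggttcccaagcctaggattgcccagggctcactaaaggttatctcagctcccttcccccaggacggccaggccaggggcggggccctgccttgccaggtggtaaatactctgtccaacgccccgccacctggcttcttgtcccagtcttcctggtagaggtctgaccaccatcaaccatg
Hgd: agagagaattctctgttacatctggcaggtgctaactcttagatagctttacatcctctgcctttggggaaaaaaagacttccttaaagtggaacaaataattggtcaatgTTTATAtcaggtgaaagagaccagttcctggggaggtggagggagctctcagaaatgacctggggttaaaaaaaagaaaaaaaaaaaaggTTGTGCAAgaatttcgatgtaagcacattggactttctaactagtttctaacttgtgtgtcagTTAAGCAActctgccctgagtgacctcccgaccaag
Tdo2: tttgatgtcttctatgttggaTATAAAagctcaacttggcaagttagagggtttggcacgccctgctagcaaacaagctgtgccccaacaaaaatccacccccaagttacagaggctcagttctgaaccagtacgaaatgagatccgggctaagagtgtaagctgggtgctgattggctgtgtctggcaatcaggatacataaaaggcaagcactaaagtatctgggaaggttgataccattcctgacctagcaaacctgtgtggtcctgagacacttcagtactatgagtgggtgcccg
The Hpd window is 61.3% G and C, against 41.0% in the Hgd window and 47.7% in the Tdo2 window. A match describes letters only and marks no binding, and the lack of one says only that these letters are not in the window.

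None of the 6 genes was called between WRE-edited and Rosa26-edited hepatocytes. With run as a term, Hpd had the largest difference, 1.42-fold higher in WRE-edited libraries, and Hgd, Gstz1 and Fah leaned the same way by 1.05-fold to 1.15-fold, while Tat and Tdo2 leaned the other way at 0.908-fold and 0.859-fold. Over all libraries without regard to run, the median of Hpd was 715 CPM in WRE-edited libraries and 722 CPM in Rosa26-edited ones. In edgeR's quasi-likelihood test with run as a term, 0 of the 6 passed an adjusted p of 0.05, and 1, Hpd, had an unadjusted p under 0.05. Over all 14393 genes, 10.1% had an unadjusted p under 0.05, and 4.95% had one with the higher level in WRE-edited libraries. That count moved with single libraries, from 1453 genes as given to 607 without WRE-edited 6 and 2167 without WRE-edited 1, and it was 449 in r770 alone. DESeq2 likewise called 0 of the 6, against 81 of all genes (0.563%). The median log2 fold change of the 6 genes was 0.12, beside 0.01 over all genes tested. In none of the 6 did the WRE-edited and Rosa26-edited libraries separate, over the 11 libraries or within r770, and groups that did not overlap were found for 0.375% and 7.64% of all genes tested.

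**Figure D1:**
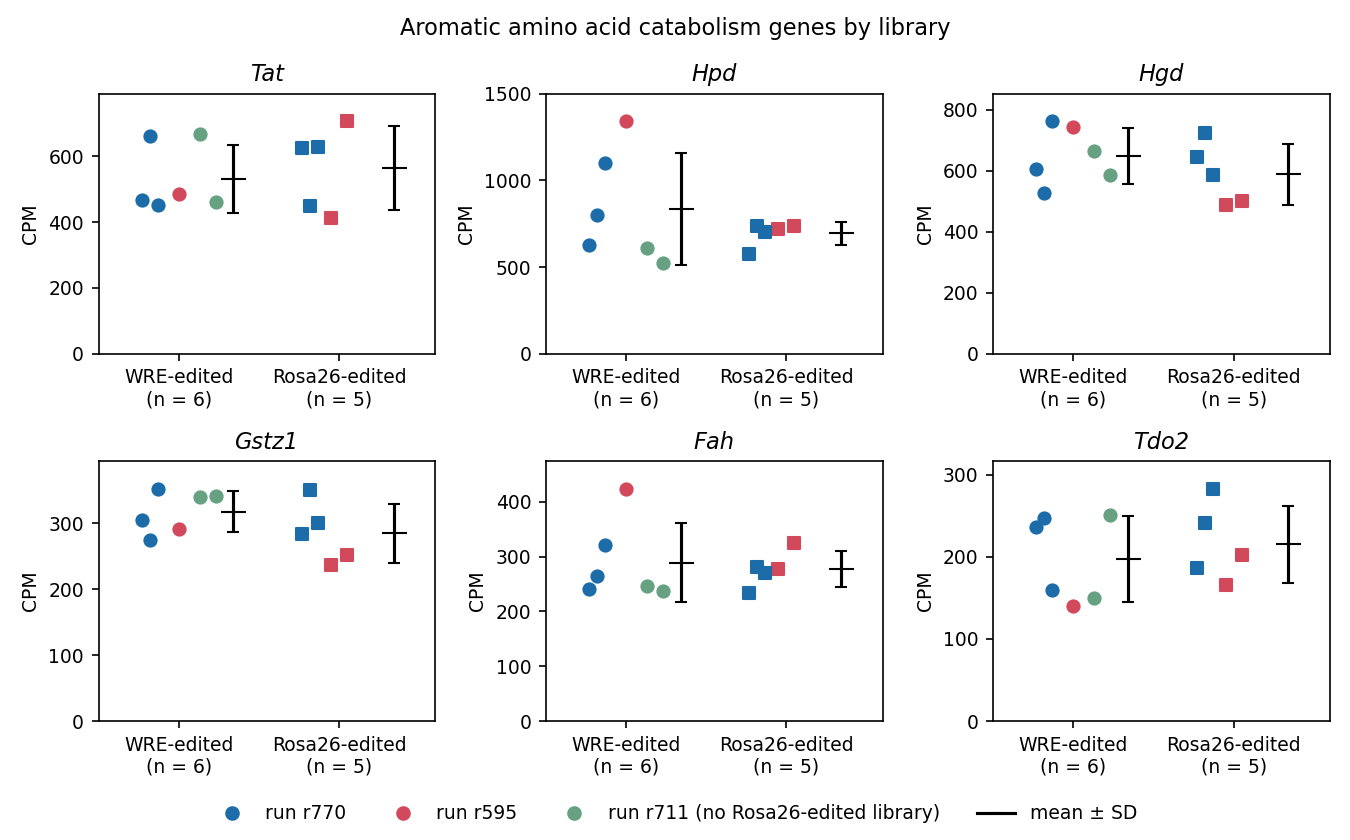
CPM of each gene in each library, WRE-edited as circles on the left and Rosa26-edited as squares on the right of each panel, coloured by run, with the mean and SD of the group beside the points. The groups overlap in all 6 panels, and the widest group is Hpd in WRE-edited libraries, from 523 to 1341 CPM, against 573 to 736 CPM in Rosa26-edited ones.

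Tat, tyrosine aminotransferase, starts the chain by moving the amino group of tyrosine to give hydroxyphenylpyruvate. In run r770 it had 466, 660.2 and 451 CPM in WRE-edited libraries 1 to 3, against 625.2, 450.2 and 629 CPM in Rosa26-edited libraries 1 to 3. In run r595 it had 486 CPM in WRE-edited 6, against 412 and 706 CPM in Rosa26-edited 4 and 5, and the WRE-edited libraries of r711 had 669 and 460.1 CPM. Both groups held low and high libraries, and each spanned most of the range of the other, and in r595 the WRE-edited library lay between the pair of Rosa26-edited ones. The means were 532 ± 103 CPM in WRE-edited libraries (SD, n = 6) and 564 ± 127 CPM in Rosa26-edited libraries (SD, n = 5). The log2 fold change was -0.14 ± 0.20 (SE) with a 95% interval of -0.57 to 0.29 and an edgeR adjusted p of 0.810, and with 1 library left out it was between -0.27 (without WRE-edited 2) and -0.015 (without Rosa26-edited 5).

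Hpd, hydroxyphenylpyruvate dioxygenase, makes homogentisate and is the enzyme that the drug nitisinone blocks. In run r770 it had 627, 802 and 1103 CPM in WRE-edited libraries 1 to 3, against 573, 736 and 703 CPM in Rosa26-edited libraries 1 to 3. In run r595 it had 1341 CPM in WRE-edited 6, against 722 and 735 CPM in Rosa26-edited 4 and 5, and in r711 it had 611 and 523 CPM in WRE-edited 4 and 5. WRE-edited 6 and WRE-edited 3 stood above every other library, and WRE-edited 5 stood below all of them, so the WRE-edited group enclosed the whole Rosa26-edited range. The means were 834 ± 322 CPM in WRE-edited libraries (SD, n = 6) and 694 ± 68.99 CPM in Rosa26-edited libraries (SD, n = 5). The SD was 38.6% of the mean in WRE-edited libraries and 9.95% in Rosa26-edited ones. The log2 fold change with run as a term was 0.51 ± 0.17 (SE), with a 95% interval of 0.13 to 0.88, an unadjusted p of 0.0130 and an adjusted p of 0.434 by edgeR, and Hpd ranked 426 of 14393 genes by p. The value rested on single libraries: it was 0.39 (unadjusted p = 0.0548 by edgeR) without WRE-edited 3 and 0.33 (unadjusted p = 0.126 by edgeR) without WRE-edited 6. WRE-edited 6 is the 1 WRE-edited library of r595. For every gene, a fit without it and with run as a term therefore takes the effect from r770 alone. The log2 fold change of Hpd was 0.27 without the run term, where the low libraries of r711 enter the comparison. When WRE-edited 4 and 6 were joined into 1 library and run was left out it was 0.22 (unadjusted p = 0.286 by edgeR), and then 0 of the 6 genes had an unadjusted p under 0.05 (0 called).

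The summed CPM of 8 stellate cell and fibroblast markers was lowest in the libraries where Hpd was highest, at 40.5 in WRE-edited 6 and 41.2 in WRE-edited 3, against 52.1 to 105 in the other 4 WRE-edited libraries and 71.2 to 101 in the Rosa26-edited ones. In no other marker list were these 2 libraries the 2 lowest. Their sums (WRE-edited 6, then 3) were 178 and 202 CPM for macrophage, 121 and 102 CPM for endothelial and 5.00 and 6.49 CPM for neutrophil markers. They were 7.19 and 6.49 CPM for cholangiocyte, 0.614 and 1.44 CPM for lymphocyte and 7.72 and 7.96 CPM for erythroid markers. All 8 markers had a negative log2 fold change, 2 of them at an unadjusted p under 0.05. Over all 14393 genes tested, 6956 had a negative fold change, and 10.1% had an unadjusted p under 0.05 in either direction. All 6 macrophage markers had negative fold changes too, and their sum was 178 to 281 CPM in WRE-edited libraries and 174 to 679 CPM in Rosa26-edited ones. All 6 endothelial markers did likewise, with sums of 102 to 162 CPM in WRE-edited libraries and 105 to 167 CPM in Rosa26-edited ones. So did the 4 neutrophil markers tested, with sums of 5.00 to 7.03 CPM in WRE-edited libraries and 4.64 to 21.6 CPM in Rosa26-edited ones. Sums of lymphocyte markers were 0.571 to 2.10 CPM in WRE-edited libraries and 1.11 to 2.59 CPM in Rosa26-edited ones, and of cholangiocyte markers 6.09 to 13.3 CPM in WRE-edited libraries and 7.14 to 24.3 CPM in Rosa26-edited ones. The 1 lymphocyte marker tested had a negative fold change, and of the 2 cholangiocyte markers tested 1 was positive, at an unadjusted p under 0.05, and 1 negative. Sums of erythroid markers were 7.47 to 10.5 CPM in WRE-edited libraries and 6.48 to 22.8 CPM in Rosa26-edited ones. All 3 erythroid markers tested, named here after their values were seen, had an unadjusted p under 0.05 in edgeR: Hba-a1 at a log2 fold change of -2.44 ± 0.71 (SE), Hbb-bs at -1.66 ± 0.48 and Alas2 at 0.45 ± 0.19. EdgeR called 0 of them and DESeq2 called Hba-a1 (adjusted p of 0.0256), whose levels were 0.519 ± 0.388 CPM in WRE-edited libraries and 1.97 ± 2.20 CPM in Rosa26-edited ones. No marker of these lists was at 0 in all libraries. Hepatocyte markers summed to 60972 to 82159 CPM in WRE-edited libraries and 61588 to 79607 CPM in Rosa26-edited ones, with 4 of 9 fold changes positive and 0 at an unadjusted p under 0.05 in edgeR (0 called by DESeq2), and they were far above the markers of all other cell types in both groups. Their sum too was low where Hpd was highest, at 60972 CPM in WRE-edited 6 and 67026 CPM in WRE-edited 3. In the other 4 WRE-edited libraries it was 73384 to 82159 CPM. The part of other cells in the Hpd values was not tested, and in these bulk libraries fewer cells of a type and less RNA per cell cannot be told apart.

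Hgd, homogentisate dioxygenase, opens the aromatic ring, and it is the enzyme missing in alkaptonuria. In run r770 it had 607, 528 and 762 CPM in WRE-edited libraries 1 to 3, against 643, 723 and 587 CPM in Rosa26-edited libraries 1 to 3. In run r595 it had 742 CPM in WRE-edited 6, against 488 and 499 CPM in Rosa26-edited 4 and 5, and in r711 it had 664 and 586 CPM in WRE-edited 4 and 5. The WRE-edited library of r595 was high and its Rosa26-edited libraries were the lowest of all 11, while in r770 the groups were interleaved. The means were 648 ± 91.5 CPM in WRE-edited libraries (SD, n = 6) and 588 ± 99.2 CPM in Rosa26-edited libraries (SD, n = 5). The log2 fold change was 0.16 ± 0.15 (SE), with a 95% interval of -0.18 to 0.49 and an edgeR adjusted p of 0.723, and it was -0.04 without WRE-edited 6.

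Gstz1, maleylacetoacetate isomerase, also known as glutathione transferase zeta, turns the opened ring into fumarylacetoacetate. In run r770 it had 305, 275 and 352 CPM in WRE-edited libraries 1 to 3, against 284, 350.2 and 300.0 CPM in Rosa26-edited libraries 1 to 3. In run r595 it had 291 CPM in WRE-edited 6, against 237 and 252 CPM in Rosa26-edited 4 and 5, and in r711 it had 340.4 and 341 CPM in WRE-edited 4 and 5. Gstz1 was the steadiest of the 6 genes among WRE-edited libraries, with an SD of 9.86% of the mean, and Rosa26-edited 4 and 5 held its lowest values. The means were 318 ± 31.3 CPM in WRE-edited libraries (SD, n = 6) and 285 ± 44.4 CPM in Rosa26-edited libraries (SD, n = 5). The log2 fold change was 0.08 ± 0.12 (SE), with a 95% interval of -0.19 to 0.34 and an edgeR adjusted p of 0.829, and it was -0.0023 without WRE-edited 6.

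Fah, fumarylacetoacetate hydrolase, closes the chain by splitting fumarylacetoacetate, and its loss causes hereditary tyrosinaemia with liver damage. In run r770 it had 242, 264 and 321 CPM in WRE-edited libraries 1 to 3, against 234, 281 and 270.3 CPM in Rosa26-edited libraries 1 to 3. In run r595 it had 423 CPM in WRE-edited 6, against 278 and 324 CPM in Rosa26-edited 4 and 5, and in r711 it had 247 and 237 CPM in WRE-edited 4 and 5. WRE-edited 6 stood apart at the top, as for Hpd, and the other 5 WRE-edited libraries lay among the Rosa26-edited ones. The means were 289 ± 72.7 CPM in WRE-edited libraries (SD, n = 6) and 278 ± 32.3 CPM in Rosa26-edited libraries (SD, n = 5). The log2 fold change was 0.21 ± 0.13 (SE), with a 95% interval of -0.08 to 0.49 and an edgeR adjusted p of 0.592, and it was 0.08 without WRE-edited 6 and 0.0099 when WRE-edited 4 and 6 were joined into 1 library and run was left out.

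Tdo2, tryptophan dioxygenase, opens the indole ring of tryptophan and feeds the kynurenine pathway. In run r770 it had 236, 247 and 160 CPM in WRE-edited libraries 1 to 3, against 186, 240.6 and 283 CPM in Rosa26-edited libraries 1 to 3. In run r595 it had 140 CPM in WRE-edited 6, against 165 and 202 CPM in Rosa26-edited 4 and 5, and in r711 it had 150 and 251 CPM in WRE-edited 4 and 5. Libraries 3, 4 and 6 of the WRE-edited group were low and the other 3 were high, with the Rosa26-edited libraries spread between and above them. The means were 197 ± 52.6 CPM in WRE-edited libraries (SD, n = 6) and 215 ± 46.7 CPM in Rosa26-edited libraries (SD, n = 5). The log2 fold change was -0.22 ± 0.19 (SE), with a 95% interval of -0.64 to 0.20 and an edgeR adjusted p of 0.697, and it was -0.12 without WRE-edited 3, -0.13 without Rosa26-edited 3 and -0.14 without WRE-edited 6.

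**Figure D2:**
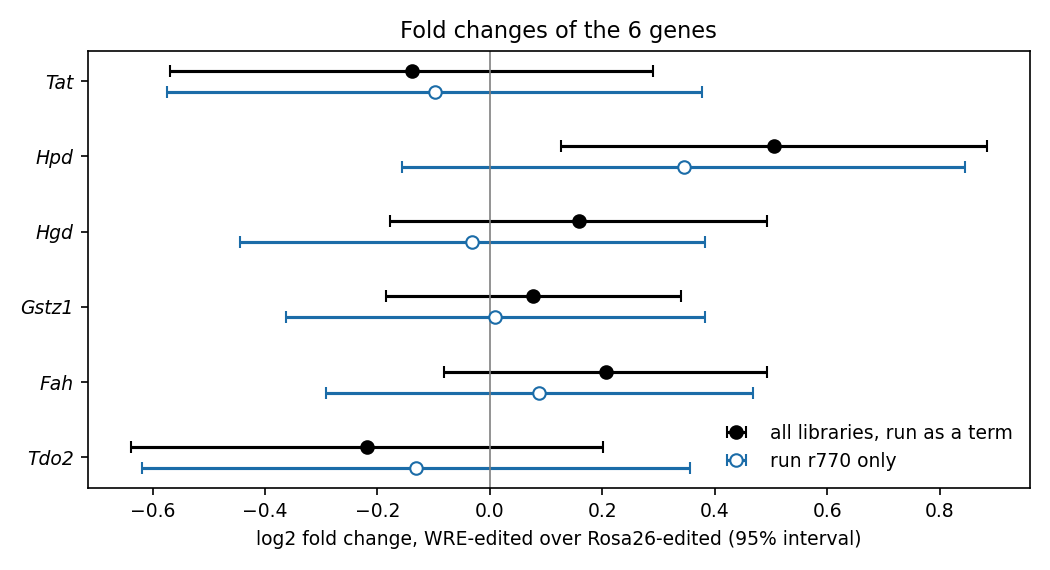
Log2 fold change of each gene, WRE-edited over Rosa26-edited, with its 95% interval, from all libraries with run as a term (filled) and from run r770 alone (open). The interval of Hpd over all libraries runs from 0.13 to 0.88 and does not cross 0, while the 5 others from all libraries do.

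The effect was also looked at within each run that held both groups. Within r770 the difference between the mean log2 CPM of WRE-edited and Rosa26-edited libraries was 0.30 for Hpd, 0.07 for Fah, -0.0037 for Gstz1, -0.05 for Hgd, -0.12 for Tat and -0.15 for Tdo2. Within r595 it was 0.88 for Hpd, 0.59 for Hgd, 0.49 for Fah, 0.25 for Gstz1, -0.15 for Tat and -0.38 for Tdo2. In that run WRE-edited 6 lay between the 2 Rosa26-edited libraries for Tat and outside them for the other genes. With 1 library against 2 that outcome is common, and its share over all genes was not counted. The medians over the 6 genes were -0.03 in r770 and 0.37 in r595. A fit on r770 alone gave Hpd 0.34 ± 0.22 (SE), with a 95% interval of -0.16 to 0.84 and an edgeR adjusted p of 0.998, and gave the other 5 genes values between -0.13 and 0.09.

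The difference between the runs was itself tested, as a run by group term over the 9 libraries of r770 and r595. For 0 of the 6 genes did it pass an adjusted p of 0.05 or have an unadjusted p under 0.05, while 6.52% of the 14582 genes in that fit had such an unadjusted p and edgeR called 0 of them (DESeq2 called 7). The largest estimate was that of Hgd, whose effect was higher in r595 by 0.63 ± 0.31 log2 (SE), with a 95% interval of -0.06 to 1.32 and an edgeR unadjusted p of 0.0690. The count of 0 at an unadjusted p under 0.05 changed without WRE-edited 3. The share of 6.52% belongs to the fit on all 9 libraries. For the fit without WRE-edited 3 the share over all genes was not counted, so its p-values have no background beside them. In that fit the difference was 0.80 for Hgd, with an edgeR adjusted p of 0.356 and an unadjusted p of 0.0158, and 0.80 for Hpd, with an edgeR adjusted p of 0.380 and an unadjusted p of 0.0309. With all 9 libraries Hpd followed at 0.55 ± 0.38 (interval -0.30 to 1.39), then Fah at 0.41 ± 0.29 (-0.24 to 1.07). Run r595 holds 1 WRE-edited library, whose spread is taken from the others, and depth, the share of mitochondrial ribosomal RNA and run cannot be told apart in that comparison.

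The same few libraries stood at the ends of the order for several genes. WRE-edited 6 ranked first of the 11 libraries for Hpd and Fah, second for Hgd and last for Tdo2. WRE-edited 3 ranked first for Hgd and Gstz1, behind WRE-edited 6 alone for Hpd, and near the bottom, at rank 9, for Tat and Tdo2. Rosa26-edited 4 ranked last for Tat, Hgd and Gstz1. Rosa26-edited 5 ranked first for Tat and second for Fah, and Rosa26-edited 3 ranked first for Tdo2. Profiles of log2 CPM, centred within each run, were set against each other by their root mean square difference over the 11 libraries. Hpd was nearest to Fah among the 6 genes, at 0.17, Hgd to Gstz1 at 0.11, and Gstz1 to Fah at 0.10. Tat and Tdo2 were far from the rest, at 0.34 from their nearest neighbours Fah and Gstz1, which is more than their own root mean square deviations of 0.27 and 0.28. These profiles share libraries, and so depth and composition.

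The nearest profiles were also listed among 5158 genes with a mean log2 CPM of 4 or more, a pool whose size alone brings nearer neighbours than the 5 other genes can. For Hpd they were Cltb, a clathrin light chain, at 0.08 and Acaa2, a mitochondrial thiolase of fatty acid oxidation, at 0.09, beside the deviation of Hpd itself of 0.31. For Tdo2 they were Igf1, the growth factor made by hepatocytes, at 0.11 and Pik3r1, a regulatory subunit of phosphoinositide kinase, at 0.13, and for Tat they were Rap2a, a small GTPase, at 0.13 and Lmf1, a lipase maturation factor, at 0.14. For Hgd they were Gabarapl2 and Psmb7, at 0.04 and 0.05, for Gstz1 Ddx56 and Hspd1, at 0.03 and 0.04, and for Fah Hspa9 and Idh3b, both at 0.04.

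Per unit of length, in the deposited TPM (transcript abundance scaled by length and library), Hpd had the highest level of the 6 genes and Tdo2 the lowest. Hpd had 488 ± 175 TPM in WRE-edited libraries (SD, n = 6) and 463 ± 140 TPM in Rosa26-edited ones (SD, n = 5), and Hgd had 286 ± 46.4 TPM in WRE-edited libraries and 269 ± 9.49 TPM in Rosa26-edited ones. Tat had 181 ± 54.1 TPM in WRE-edited libraries and 192.1 ± 54.4 TPM in Rosa26-edited ones, close to Gstz1 and Fah. Gstz1 had 179 ± 35.0 TPM in WRE-edited libraries and 165 ± 13.7 TPM in Rosa26-edited ones, Fah had 137 ± 32.6 TPM in WRE-edited libraries and 142 ± 38.0 TPM in Rosa26-edited ones, and Tdo2 had 79.4 ± 33.7 TPM in WRE-edited libraries and 78.1 ± 27.4 TPM in Rosa26-edited ones. The order Hpd over Hgd held within 11 of 11 libraries, with a median ratio of 1.62, and Hgd over Tat held in 11 of 11, though by as little as 1.02-fold in 1 of them. Fah over Tdo2 also held in 11 of 11, by 1.10-fold to 5.82-fold. Tat, Gstz1 and Fah had no fixed order among themselves: Tat exceeded Gstz1 in 6 of 11 libraries and Fah in 8 of 11, and Gstz1 exceeded Fah in 8 of 11.

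**Figure D3:**
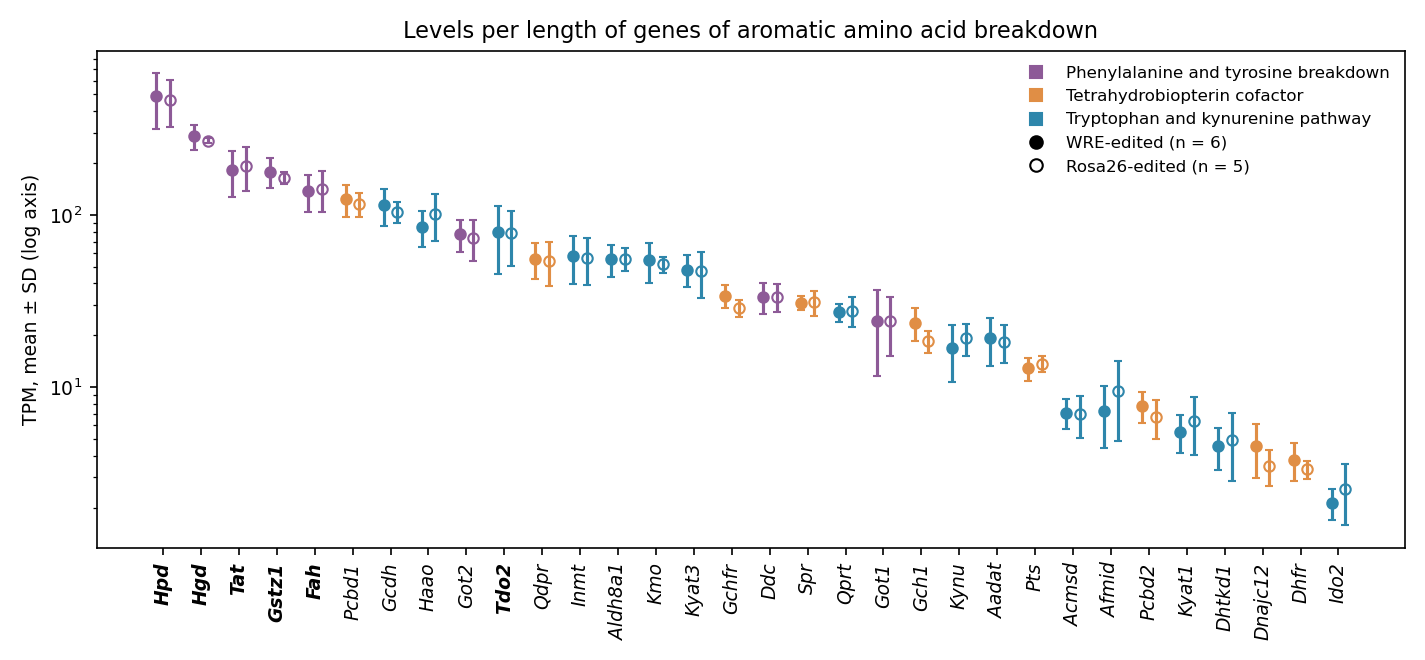
Mean TPM with SD, on a log axis, of tested genes of 3 lists of aromatic amino acid breakdown, WRE-edited (filled, n = 6) left of Rosa26-edited (open, n = 5), with the 6 genes in bold. Levels run from Hpd at 488 TPM in WRE-edited and 463 TPM in Rosa26-edited libraries to Ido2 at 2.13 TPM in WRE-edited and 2.57 TPM in Rosa26-edited libraries, and the 5 highest genes shown are all among the 6.

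Tryptophan's other ring-opening enzymes were far below Tdo2 in these hepatocytes. Ido2 had 2.13 ± 0.43 TPM in WRE-edited libraries and 2.57 ± 0.99 TPM in Rosa26-edited ones, and Ido1 did not exceed 0.08 TPM in any library. Downstream, Kmo, kynurenine monooxygenase, had 54.6 ± 14.4 TPM in WRE-edited libraries and 51.7 ± 5.49 TPM in Rosa26-edited ones. Haao, the dioxygenase of hydroxyanthranilate, had 85.3 ± 20.3 TPM in WRE-edited libraries and 101 ± 30.6 TPM in Rosa26-edited ones, a level near that of Tdo2. Kynu, kynureninase, had 16.9 ± 6.12 TPM in WRE-edited libraries and 19.2 ± 4.06 TPM in Rosa26-edited ones.

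The TPM of Tdo2 carries a difference in effective length between runs. The effective length, which RSEM derives for each gene and library from the isoforms it assigned reads to, was 2591 to 2774 bases for Tdo2 in the 3 libraries of r595 and 1519 to 1773 bases in the other 8. The ratio of the medians was 1.58, and 1.29% of the genes tested had a ratio as high or higher, beside a median of 1.01 and a central 90% of 0.660 to 1.27 over all genes tested. The shift took in the WRE-edited and the Rosa26-edited libraries of r595 alike. Within r770 Tdo2 had 1519 to 1584 bases in WRE-edited libraries 1 to 3 against 1644 to 1741 bases in Rosa26-edited libraries 1 to 3, while WRE-edited 4 and 5 of r711 had 1698 and 1773 bases. The groups of r770 overlapped in effective length for all of the 6 genes but Tdo2 and Hgd, and 8.58% of all genes tested had no overlap there. Tat had 2227 to 2236 bases in r595 and 1956 to 2051 in the others (ratio 1.121), Gstz1 had 1306 to 1320 and 1149 to 1266 bases (1.126), and Hpd had 996 to 1103 and 1126 to 1157 bases (0.955). Hgd and Fah, each at a ratio of 1.02, had nearly the same length in every library. With effective lengths as offsets in the fit, the log2 fold change of Tdo2 was -0.18 and that of Hpd 0.46, and 0 of the 6 genes were called. Tdo2 has 4 annotated isoforms in the tables, and which of them were present was not tested.

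**Figure D4:**
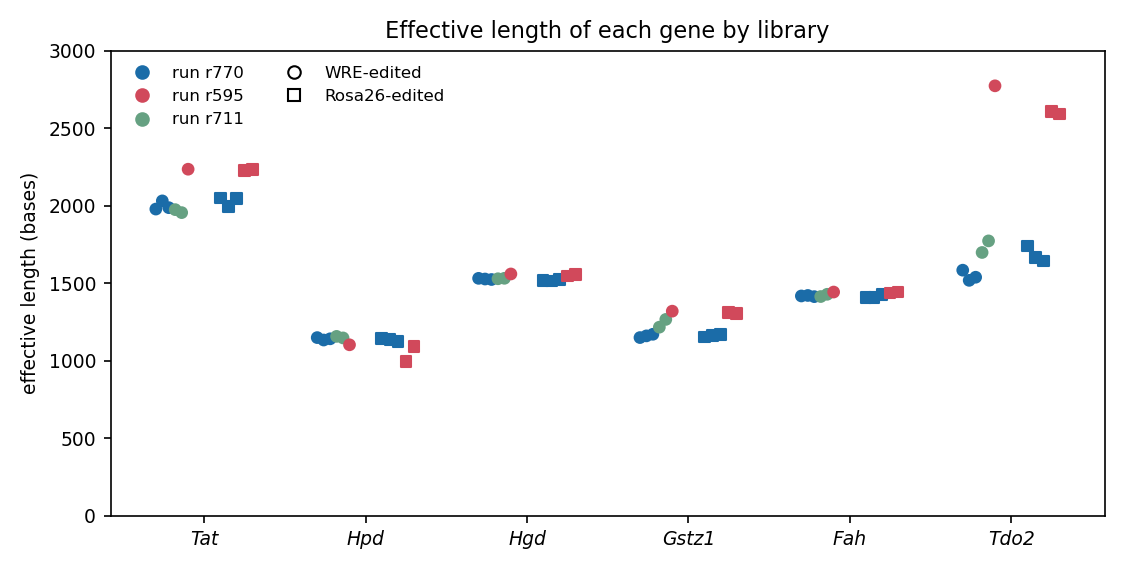
Effective length in bases of each gene in each library, WRE-edited as circles left of Rosa26-edited as squares, coloured by run. Tdo2 in the 3 libraries of r595 stands at 2591 to 2774 bases, above all other libraries at 1519 to 1773 bases.

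The rest of the pathway was taken from lists of 28 further genes, of which 26 were tested. Of these, 19 had a positive log2 fold change and 7 a negative one, 4 had an unadjusted p under 0.05 with the higher level in WRE-edited libraries and 0 with the lower, and 0 were called by edgeR or DESeq2. Over all 14393 genes tested, 7437 had a positive fold change, and 4.95% had such a p with the higher level in WRE-edited libraries. The median log2 fold change of the 26 genes was 0.08, and it was -0.01 within r770 and 0.32 within r595, beside -0.03 and 0.37 for the 6 genes.

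Around the tyrosine chain, 3 of 4 further genes were tested and 2 of them had positive fold changes. Got2, mitochondrial aspartate aminotransferase, which can also act on aromatic amino acids, had 266 ± 60.9 CPM in WRE-edited libraries (SD, n = 6) and 237 ± 19.0 CPM in Rosa26-edited ones (SD, n = 5), and its log2 fold change was 0.29 ± 0.13 (SE) with an unadjusted p of 0.0476 and an adjusted p of 0.487 by edgeR, and it was 0.18 without WRE-edited 6. Ddc, aromatic amino acid decarboxylase, was at 0.10 ± 0.14 and Got1, the cytosolic aminotransferase, at -0.13 ± 0.33. Il4i1, an amino acid oxidase of immune cells, had too few counts to be tested.

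Tetrahydrobiopterin is a cofactor of aromatic amino acid breakdown, and 8 of the 9 genes of its synthesis, recycling and control had positive fold changes. Over all genes tested, 7437 of 14393 had a positive fold change. In 3 of the 9 the unadjusted p was under 0.05, all with the higher level in WRE-edited libraries, beside 4.95% of all genes tested. Of the 9, 0 were called by edgeR or DESeq2. Gch1, the first enzyme of its synthesis, had 92.3 ± 17.7 CPM in WRE-edited libraries (SD, n = 6) and 69.4 ± 11.7 CPM in Rosa26-edited ones (SD, n = 5), and its log2 fold change was 0.45 ± 0.17 (SE) with an unadjusted p of 0.0226 and an adjusted p of 0.441 by edgeR, and it was 0.24 without WRE-edited 6. Gchfr, the feedback regulator of Gch1, had 25.2 ± 6.17 CPM in WRE-edited libraries and 20.1 ± 4.02 CPM in Rosa26-edited ones, a log2 fold change of 0.42 ± 0.17 (edgeR adjusted p of 0.443). Dnajc12, a co-chaperone of the aromatic amino acid hydroxylases, had 5.86 ± 1.81 CPM in WRE-edited libraries and 4.47 ± 1.04 CPM in Rosa26-edited ones, a log2 fold change of 0.47 ± 0.17 (edgeR adjusted p of 0.441). The median of the list was 0.22, with -0.06 in r770 and 0.41 in r595. Within r770 the log2 difference was 0.24 for Gch1, 0.29 for Gchfr and 0.48 for Dnajc12.

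Along the kynurenine pathway, 14 of 15 further genes were tested, 9 with a positive fold change, and 0 had an unadjusted p under 0.05 in edgeR (0 called by DESeq2). Gcdh, glutaryl-CoA dehydrogenase, where tryptophan breakdown meets that of lysine, had 278 ± 62.1 CPM in WRE-edited libraries (SD, n = 6) and 233 ± 46.5 CPM in Rosa26-edited ones (SD, n = 5), and its log2 fold change was 0.35 ± 0.17 (SE), with a 95% interval of -0.03 to 0.72 and an edgeR adjusted p of 0.515, and it was 0.13 without WRE-edited 6. Kyat3, a kynurenine aminotransferase, was at 0.24 ± 0.19, and Kynu at -0.23 ± 0.21. The median of these 14 genes was 0.05.

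Breakdown of other amino acids gave a background for the 6 genes. All 35 genes of that list were tested, 23 had a positive fold change, and 4 (11.4%) had an unadjusted p under 0.05, all with the higher level in WRE-edited libraries, against 10.1% of all genes in either direction. Their median was 0.09, beside 0.12 for the 6 genes, and 0 were called by edgeR or DESeq2. Gpt, alanine aminotransferase, was at 0.33 ± 0.12 (edgeR adjusted p of 0.441) and at 0.19 without WRE-edited 6, and Gnmt, glycine methyltransferase, at 0.45 ± 0.18 (edgeR adjusted p of 0.448).

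**Figure D5:**
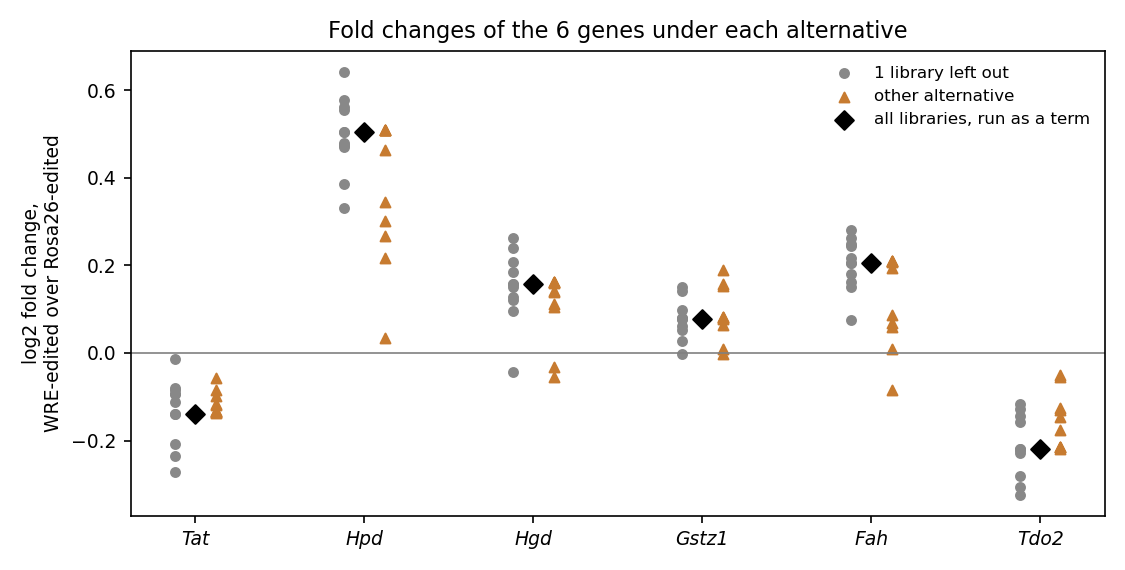
Log2 fold change of each gene, WRE-edited over Rosa26-edited, with all libraries and run as a term (diamonds), with 1 library left out (grey circles) and under the other alternatives (triangles). Hpd ranges from 0.03 to 0.64 without changing sign, Tat and Tdo2 stay below 0, and Hgd, Gstz1 and Fah fall on both sides of 0.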

How the data were processed

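RNA-seq of 11 libraries was used. The deposited expected counts, 1 value per Ensembl gene and library, were produced by the authors with RSEM 1.3.1 after alignment by STAR 2.7.6a, per the file headers and the submitters' processing notes, which name GRCm38. The same deposited tables give TPM and other values, the effective length in bases. Neither how strand was handled nor the version of the annotation is given in the sources used here. Expected counts were rounded to whole numbers and tested in R 4.3.3 with edgeR 4.0.16 (filterByExpr by group, minimum count 10, minimum total 15; TMM; robust quasi-likelihood fit with group and run as terms; 7 residual degrees of freedom; two-sided). The Benjamini-Hochberg adjustment ran over all 14393 genes, with a threshold of 0.05. The effect comes from r770 and r595, since r711 holds 1 group. Intervals are 95% from the standard error, and DESeq2 1.42.0 was an alternative. The method was also run on simulated counts, drawn with the same spread for all genes and no difference between runs. That simulation therefore does not show how the method does with the run differences of these data. CPM values use TMM factors. Symbols came from the gene name table (55450 of 55536 identifiers), and coordinates and promoters from RefSeq on GRCm38.p6.

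The 6 genes and all lists were chosen with earlier results of these data known. The text names the 6 genes, genes of the 3 pathway lists, with the 3 of smallest p in each, the 2 of smallest p among transporters, other amino acid catabolism, glucocorticoid-responsive genes and liver transcription factors, Rian, and the 2 nearest profiles per gene. Counts per library of the 6 genes were 3150 to 31445, so the spread between libraries, not counting error, limits the precision. The miRNA libraries and the authors' normalized matrix were not used here, and 1 gene of the pathway is not reported here.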

Additional observations from a re-analysis of the deposited data

Results flagged for a closer look

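Hpd in Rosa26-edited 1 stood apart from the other 4 Rosa26-edited libraries. It had 572.5 CPM there and 702.6 CPM in the next lowest library, a gap that took 0.796 of the whole range of the group. The 6 WRE-edited libraries held a lower value still, 523 CPM in WRE-edited 5. It was the 1 such value among 42 pairs of a gene and a group looked at for 21 genes. By chance about 1 pair in 20 shows such a value, so 1 among 42 is no more than chance gives. Without Rosa26-edited 1 the log2 fold change of Hpd was 0.47, with an edgeR adjusted p of 0.622.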

How the results depend on the processing

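In 21 alternatives, 126 fold changes of the 6 genes were recomputed and 0 had an adjusted p under 0.05. The fits without WRE-edited 6, on r770 only, and with a replicate block and the run term all take the effect from r770 alone. They are therefore not separate checks. Hpd kept its sign in all 21 (0.03 to 0.64, adjusted p 0.104 to 0.998), with an unadjusted p under 0.05 in 14 of them, lost among others without WRE-edited 3 or 6. Genes called, 1 as reported, were 81 by DESeq2, 450 with no filter, 0 with no run term, 0 in r770 only, 0 in r770 and r595 only (an alternative added after seeing the data), and 0 to 2 with 1 library left out. The 1 call, Rian, was lost in 10 of the 21, among them without Rosa26-edited 2 and without WRE-edited 2, 3, 4, 5 or 6, each taken out alone, with its log2 fold change between -2.45 and -1.85 throughout. The median of the 6 genes, 0.12 as reported, was -0.011 in r770 only and -0.022 (without WRE-edited 6) to 0.20 with 1 library left out. Genes called for the difference between runs, 0 as reported, were 7 by DESeq2, 251 with no filter and 0 to 2 with 1 library left out (2 without Rosa26-edited 5).

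Deviations of same-numbered libraries from the mean of their run and group correlated at 0.087, -0.246, -0.097, 0.154 and 0.154, and 5 of 10 libraries correlated best with their own number. Libraries 4 and 5 of each group are the only 2 of that group in their run, so their deviations mirror each other. The value of 0.154 is therefore 1 value given 2 times, and the 10 libraries are not independent. The correlations were small and of both signs, and some same-numbered libraries came from different runs. This check therefore cannot decide whether the numbers pair the samples. With the replicate block and the run term 2 genes were called and the median of the 6 genes was -0.029, and with the block and no run term the median was -0.0085. In the fit with both terms the effect comes from r770 alone: WRE-edited 6 has no same-numbered partner, and numbers 4 and 5 set r711 against r595. Within r770 the median log2 difference without a block was -0.03. That fit therefore cannot tell pairing from the loss of r595. With no run term, numbers 4 and 5 bring the run difference into the effect. With the block and the run term Hgd was -0.054 and Gstz1 -0.0034, and with the block and no run term Fah was -0.083 and Slc43a1 0.050.

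Other signs that turned were Hgd in r770 only (-0.031) and with 1 library left out (-0.043 to 0.26), and Gstz1 with 1 left out (-0.0023 to 0.15). The difference between runs of Tat was -0.43 to 0.35 with 1 library left out. The cause was not tested.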

Other observations

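Among 12 liver transcription factors, 11 had a positive log2 fold change with a median of 0.42, and 5 had an unadjusted p under 0.05, all with the higher level in WRE-edited libraries, beside 4.95% of all genes tested with that direction and p. Foxa2, a pioneer factor of liver genes, had 21.0 ± 10.4 CPM in WRE-edited libraries (SD, n = 6) and 15.5 ± 4.49 CPM in Rosa26-edited ones (SD, n = 5), at 0.80 ± 0.17 (SE) with an edgeR adjusted p of 0.262. Foxa3, a factor of the same family, had 37.4 ± 3.39 CPM in WRE-edited libraries and 28.1 ± 3.20 CPM in Rosa26-edited ones, at 0.46 ± 0.10 with an edgeR adjusted p of 0.266. Neither was called by edgeR as reported. DESeq2 called both, and edgeR without the filter on low counts called Foxa2, while Foxa2 was at 0.44 when run was left out, and at 0.36 when WRE-edited 4 and 6 were also joined into 1 library.

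Glucocorticoid-responsive genes, 13 of which were tested, had a median of 0.26, with 9 positive and 1 at an unadjusted p under 0.05. Over all genes tested, 10.1% had such a p in either direction. Fkbp5, a chaperone of the glucocorticoid receptor, had 27.0 ± 10.2 CPM in WRE-edited libraries and 16.6 ± 2.54 CPM in Rosa26-edited ones, at 0.61 ± 0.26 with an edgeR adjusted p of 0.468, and edgeR without that filter called it, while it was at 0.32 without WRE-edited 2. Sgk1, a kinase that glucocorticoids induce, was at -0.42 ± 0.25, and at -0.15 without Rosa26-edited 1. Tat and Tdo2, themselves known targets, were at -0.14 and -0.22. Of 6 aromatic amino acid transporters tested, Slc43a1 was at -0.59 ± 0.25 (edgeR adjusted p of 0.463) and Slc7a5 at 0.55 ± 0.32, and 0 of the 6 were called by edgeR or DESeq2. With no run term Slc43a1 was at -0.077, and Slc7a5 stood at 0.24 when WRE-edited 6 was taken out and at 0.34 when Rosa26-edited 5 was.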
